A study of Homo sapiens with 97 samples.

Results

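Stretches at the end of the long arm of chromosome 8 (8q) and at the end of the short arm of chromosome 7 (7p) carried 10.3% of the nuclear peaks of NS-seq, an assay of replication start sites, in AsiSI-U2OS cells. The members were chosen by the measured positions themselves: every NS-seq peak with its midpoint at or above 142000000 on chromosome 8, or below 7000000 on chromosome 7, in the hg19 build. The 8q stretch held 166 peaks and the 7p stretch held 218, together 384 of the 3750 peaks in the list and of its 3733 nuclear peaks. Because density chose them, their density is given as a description without a test. By that same measure, 8 of the 12 densest 1 Mb windows of the nuclear genome lay in the 2 stretches.

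NS-seq isolates short nascent DNA strands, which start with an RNA primer and so resist an exonuclease, and its peaks mark places where replication began in many cells of a culture. In human cells such origins are known to gather in zones of neighbouring sites, to be more frequent in early-replicating sequence, and to fire at different times of S phase. Replication timing sorts sequence by when it is copied, from early to late, and neighbouring sequence of like timing forms domains.

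The study followed DNA replication around DNA breaks in human cancer lines, with 97 samples in all. AsiSI-U2OS is an osteosarcoma line that carries the restriction enzyme AsiSI, which cuts its genome once 4-hydroxytamoxifen (4OHT) is added. NS-seq was made from 2 samples of AsiSI-U2OS cells with 300 nM 4OHT for 4 h, 2 samples of untreated AsiSI-U2OS cells and 2 inputs. The deposited NS-seq list is merged and sits under an input sample, so its peaks could not be assigned to 4OHT or untreated cells, and treatment was not compared. Timing came from untreated wild-type U2OS cells, as G1 and S phase samples that are each named as merged, and was deposited as lists of early, mid-early, mid-late and late intervals. Break sites came from HCT116 colorectal carcinoma cells that lack LIG4, a ligase of end joining, carry RAD21 (a cohesin subunit) with an AID tag, and were treated with 4OHT (2 samples). The break list holds AsiSI sites bound by MRE11, a nuclease that binds broken ends.

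Read depth behind the list is unknown. Every peak was 1000 bp wide, and each carried a score that is the authors' value with no stated scale. With 1 list there is no replicate, so the 95% intervals below are exact intervals for counting error alone, and they are too narrow because peaks lie in clusters. No genome or annotation of hg19 was used, so positions carry no gene names.

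In the 8q stretch, 166 peaks in 4.364 Mb made 38.0 peaks per Mb (interval 32.5 to 44.3). In the 7p stretch, 218 peaks in 7 Mb made 31.1 peaks per Mb (27.1 to 35.6). The rest of the nuclear genome had 1.12 peaks per Mb (1.08 to 1.15), so the 8q stretch was 34.1 times as dense and the 7p stretch 27.9 times as dense. Together the stretches held 10.3% of nuclear peaks in 0.377% of the listed nuclear sequence. The windows bear the same contrast. More than 20 peaks were found in 4 of the 5 windows of 1 Mb in the 8q stretch, the fifth being a part window at the chromosome end, and in 4 of 7 in the 7p stretch. Over all nuclear windows that share was 0.385% (12 of 3113), which is the quantity that picked the stretches. The 6 densest windows of the genome all lay in them, and the densest window elsewhere, on chromosome 12, had 34 peaks.

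Each stretch was set beside the neighbouring 7 Mb on the centromere side of its border, which on 7p was nearly bare and on 8q was not. The 8q stretch had 38.0 peaks per Mb against 2.57 in its neighbour (18 peaks, interval 1.52 to 4.06), a ratio of 14.8 (interval 9.08 to 25.6), or 9.22 against a neighbour as long as the stretch. The 7p stretch had 31.1 peaks per Mb against 0.143 in its neighbour, which held 1 peak, so the ratio of 218 has an interval of 38.7 to 8650 and no firm size. Moved 1 Mb towards the chromosome end, the borders gave ratios of 6.07 for 8q and 13.9 for 7p, since members then fell into the neighbours.

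The order of the stretches by density depends on where 7p is taken to end. Taken whole, 8q was 1.22 times as dense as 7p (interval 0.992 to 1.502). Over the length of the 8q stretch counted from the chromosome end, chromosome 8 held 166 peaks and chromosome 7 held 174, and the ratio turned to 0.954. Without the densest 1 Mb window of each stretch the ratio was 1.53.

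Other chromosome ends did not reach these counts. Over the length of the 7p stretch, the right end of chromosome 8 held 183 peaks and the left end of chromosome 7 held 218. The median of the 46 other ends was 17.5 peaks, and the highest was 100, at the right end of chromosome 17. Both ends ranked above every other end in the listed genome, whichever of the 2 lengths was used. The stretches were chosen for their density, so this rank is built in and is only a description. The median of the other ends includes the left ends of chromosomes 13, 14, 15, 21 and 22, which held 0 peaks over either length.

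Within the stretches the peaks were spread in different ways. Along 8q, the windows starting at 142000001, 143000001, 144000001 and 145000001 held 29, 51, 49 and 37 peaks, and the last 0.364 Mb held 0. Along 7p, the 7 windows from the chromosome end inwards held 35, 84, 49, 4, 9, 21 and 16 peaks. Peaks were thus spread over the whole of 8q short of its end, whereas most of those of 7p fell in its outer 3 Mb. The window from 1000001 to 2000000 on chromosome 7 alone held 84 of the 218 peaks, and the 7p density without it was 22.3 per Mb. In windows of 250 kb the variance of the counts was 2.75 times their mean over 17 full windows of 8q (0 to 21 peaks, median 10). It was 8.23 times the mean over 28 windows of 7p (0 to 28 peaks, median 6). In windows of 100 kb, 7 of 44 in 8q and 21 of 70 in 7p were empty.

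**Figure D1:**
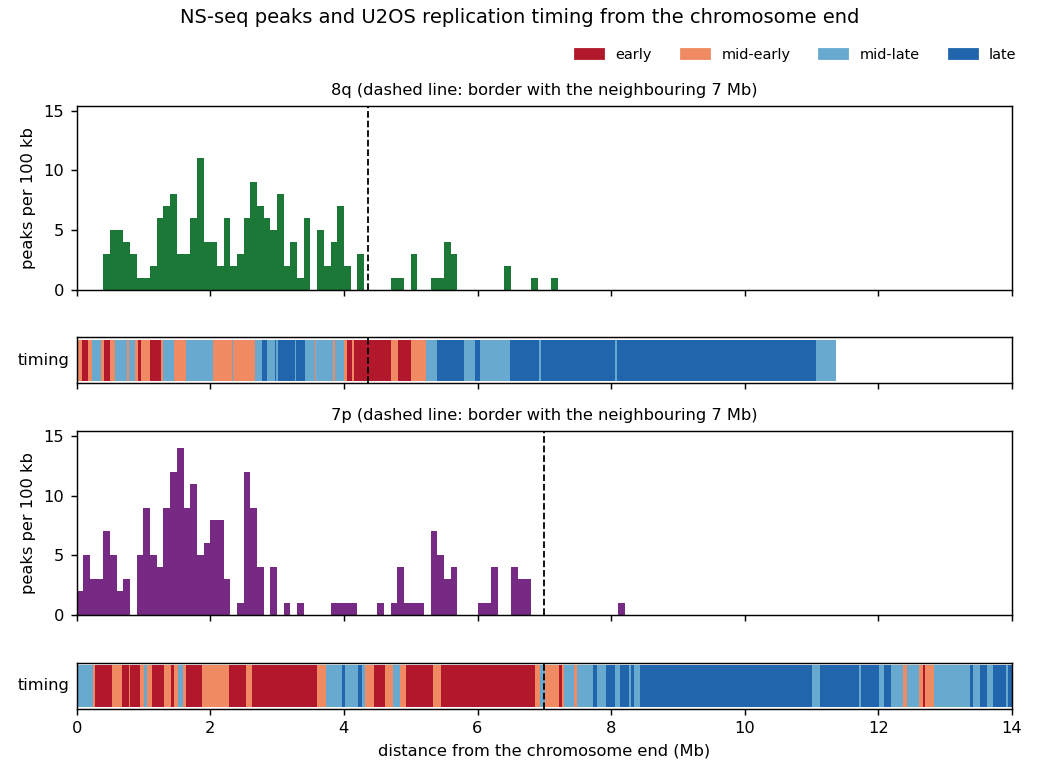
NS-seq peaks per 100 kb (bars) and U2OS timing class (coloured strips) against distance from the chromosome end in Mb, for 8q (above) and 7p (below), with a dashed line at the border with the neighbouring 7 Mb. Peaks of 8q fill the stretch up to a bare end and thin out past the border, while those of 7p gather in the outer 3 Mb, with up to 14 peaks per 100 kb, and return at lower density before the border.

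The edges of the stretches depended on the rule that placed them, and a fit of 1 change point returns a step whatever the shape. A single change of density, placed where it best divided the stretch and its neighbour, fell at 142344468 on chromosome 8, 4.02 Mb from the chromosome end. On its end side 163 peaks made 40.6 per Mb, and on its centromere side 21 peaks made 2.86 per Mb. It lay in a mid-early interval of 38.8 kb (142318701 to 142357500). That place coincides with the far end of the longest peak-free gap of 8q, 200 kb from 142143763 to 142343968, of which 70.4% was early.

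On chromosome 7 the change point fell well inside the stretch, at 2710038, with positions up to 2764165 about as well placed. On its end side 163 peaks made 60.1 per Mb, and on its centromere side 56 peaks made 4.96 per Mb. Both sides of the step were early-replicating. The 23.1 kb early interval before it (2687101 to 2710200) held 5 peaks, or 216 per Mb, and the 888.8 kb early interval after it held 7, or 7.88 per Mb. Timing class did not change where density did.

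A second step of 7p, looked for beyond the first after the values were seen, fell at 6790386, the innermost peak. Density was 13.5 per Mb (55 peaks) up to it and 0.139 per Mb (1 peak) beyond it, in an early interval that runs on to 6857100. With peaks at or above the median nuclear score alone, the single change point of 7p moved to this second step, at 6.79 Mb. The change point of 8q then moved to 142.122 Mb. By the other rule tried, the innermost 250 kb window with at least 5 peaks, the edge lay at 140.75 Mb for 8q, outside the stretch, and at 6.75 Mb for 7p.

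The outermost peaks differed in their distance from the chromosome end. On 8q the outermost peak (145924334 to 145925333, score 16.3, early) left 439 kb up to the end of the listed chromosome without a peak. On 7p the outermost peak (76403 to 77402, score 11.95, mid-late) lay 76.9 kb from the end. The innermost peaks were 142069025 to 142070024 on 8q (score 11.1, early), 69.5 kb inside the border, and 6789886 to 6790885 on 7p (score 13.9, early), 210 kb inside it. Just outside, the next peak below the 8q border was 141633304 to 141634303 (score 11.04, mid-early), 366 kb away. The next beyond the 7p border was 8191883 to 8192882 (score 18.2, late), 1192 kb away. That lone peak was followed by 18.3 Mb without another.

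The neighbours also differed in how they thinned out. In the 8q neighbour, the 7 windows of 1 Mb from 135000001 upwards held 0, 0, 0, 0, 4, 9 and 5 peaks. In the 7p neighbour, those from 7000001 inwards held 0, 1, 0, 0, 0, 0 and 0. All 18 peaks of the 8q neighbour thus lay in the 3 Mb nearest to the stretch.

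The members lay closer together than peaks elsewhere. Gaps and density come from the same positions, so shorter gaps are built into the choice of dense stretches. The median gap, from the end of a peak to the start of the next, was 12.3 kb in 8q (quartiles 4.24 and 28.6 kb) and 9.08 kb in 7p (3.62 and 23.5 kb). In the rest of the nuclear genome it was 111 kb (27.4 and 437 kb), and in the 8q neighbour it was 55.9 kb. Gaps under 10 kb made up 74 of 165 (44.8%) in 8q, 113 of 217 (52.1%) in 7p and 13.4% in the rest of the genome. Without its densest window the median gap of 7p was 12.7 kb, close to that of 8q. With peaks at or above the median nuclear score, the median gaps were 22.6 kb in 8q and 22.5 kb in 7p.

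**Figure D2:**
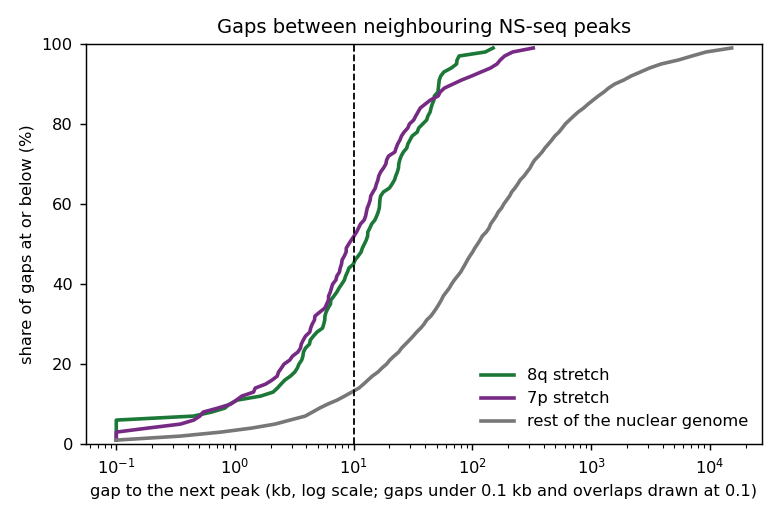
Share of gaps (%) at or below each gap length (kb, log scale) for the 8q stretch, the 7p stretch and the rest of the nuclear genome, with a dashed line at the 10 kb that defines a zone. The curves of 8q and 7p run together over short gaps and reach medians of 12.3 and 9.08 kb, against 111 kb for the rest of the genome, and 7p has the longer tail.

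At the short end the stretches were alike. Gaps under 1 kb numbered 18 in 8q and 23 in 7p, and 7 and 8 of these were overlaps between neighbouring peaks. The closest pair of 8q overlapped by 374 bp and joined the peaks from 144499600 to 144500599 and from 144500226 to 144501225, in the largest zone of the stretch. The closest pair of 7p overlapped by 556 bp and joined the peaks from 6211026 to 6212025 and from 6211470 to 6212469, in an early zone of 5 peaks. Overlapping peaks share sequence, so they are not separate observations; joined and counted as 1, they left both densities and both median gaps within their intervals.

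At the long end they were not. Gaps over 100 kb numbered 5 in 8q and 18 in 7p. The 2 longest gaps of 8q were the 200 kb gap at its edge and 153 kb from 145288841 to 145441881, of which 72.8% was mid-early. The 2 longest of 7p were 510 kb from 3319548 to 3829134, of which 54.8% was early, and 350 kb from 5663156 to 6013179, which was early throughout. These gaps lay wholly or mostly in early and mid-early sequence.

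Zones were taken as runs of at least 2 peaks with neighbours under 10 kb apart. In 8q 114 peaks (68.7%, interval 61.0 to 75.6) lay in 40 zones, and in 7p 157 peaks (72.0%, 65.6 to 77.9) lay in 44 zones. Over all nuclear peaks the share was 28.3%, and in the rest of the genome it was 23.4%; density and zone share come from the same positions, so a higher share follows in part from the choice of members. In the 8q neighbour 4 of 18 peaks lay in zones, and the lone peak of the 7p neighbour did not. Under other settings fewer than 50% of members lay in zones. With a zone distance of 5 kb the shares were 48.8% in 8q and 49.5% in 7p, and with peaks at or above the median nuclear score they were 45.7% and 47.5%. Zones covered 9.18% of 8q and 8.79% of 7p. A zone spanned 8.81 kb in 8q and 9.82 kb in 7p at the median.

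Zones of 7p were larger than those of 8q. Pairs made up 21 of 40 zones in 8q, 22 of 44 in 7p and 80.5% of the 339 zones in the rest of the genome. Zones of at least 5 peaks numbered 5 in 8q and 12 in 7p, against 6 in the rest of the genome. They held 16.9% of the peaks of 8q and 37.2% of those of 7p, against 1.40% in the rest. Of the 4 nuclear zones with at least 10 peaks, 3 lay in 7p and 0 in 8q. Leaving out the densest window brought the share of 7p peaks in zones to 64.2%.

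The 3 zones of 7p with most peaks were long runs. The largest, from 1479870 to 1527025, held 12 peaks in 47.2 kb, 9 of them in mid-early and 3 in mid-late sequence. The next, from 2526551 to 2582118, held 11 peaks in 55.6 kb across a border of early (6 peaks) and mid-early (5 peaks) sequence. The third, from 2651862 to 2710537, held 10 peaks in 58.7 kb, all early, and its last peak is the change point of 7p. The 250 kb window from 2500001, which contains this zone, held 24 peaks, and the next windows inwards held 5, 1, 1 and 0.

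Those of 8q were shorter. The largest, from 144482891 to 144505923, held 7 peaks in 23.0 kb, all mid-late, with the second-highest score of the stretch (19.7). The next, from 143692977 to 143715448, held 6 peaks in 22.5 kb, 4 mid-early and 2 mid-late. The third, from 144634281 to 144665063, held 5 mid-late peaks in 30.8 kb. Most zones, 37 of 40 in 8q and 40 of 44 in 7p, held peaks of 1 timing class. Zones were short beside unbroken runs of 1 class, with medians of 8.81 against 91.0 kb in 8q. In 7p the medians were 9.82 against 108 kb. Few crossings are built into such lengths, and whether zones avoid timing borders was not tested.

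**Figure D3:**
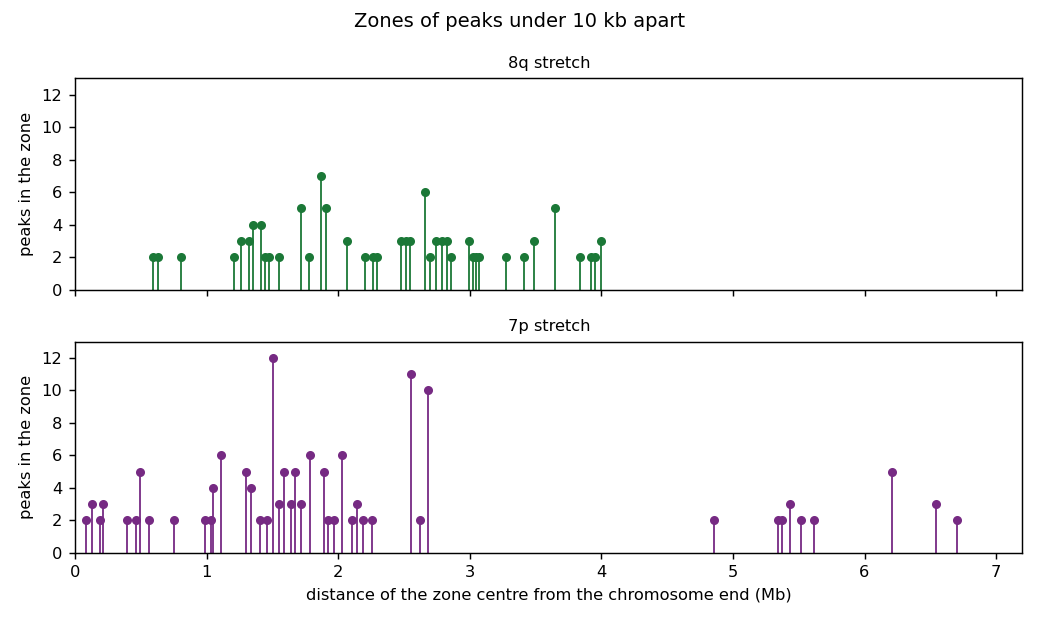
Number of peaks in each zone against the distance of its centre from the chromosome end in Mb, with 40 zones of the 8q stretch above and 44 zones of the 7p stretch below. Zones of 8q hold at most 7 peaks, while 3 zones of 7p, all within 3 Mb of the end, hold 10 to 12. The middle of 7p has no zones before they return.

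The stretches differed in timing class. Of the listed sequence of 8q, 15.4% was early, 32.2% mid-early, 41.6% mid-late and 10.9% late. Of that of 7p, 60.1% was early, 23.9% mid-early, 14.5% mid-late and 1.501% late. The rest of the nuclear genome was split nearly evenly, with 25.4%, 23.7%, 25.9% and 24.99% in the same order. Timing was not used to choose the members, and here 8q leaned to mid-late and 7p to early sequence. Mid-late and late sequence together made up 52.4% of 8q, close to the 50.9% of the rest of the genome. That 8q share was 50.6% with the border 1 Mb nearer the chromosome end and 45.2% with it 1 Mb nearer the centromere.

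Both neighbours were mostly late. The 8q stretch was 10.9% late against 71.5% in its neighbour, and the 7p stretch was 1.501% late against 61.5% in its neighbour. The timing classes changed more often along 8q, with 37 changes (8.48 per Mb), than along 7p, with 36 changes (5.14 per Mb), and the nuclear genome had 4.53 per Mb. The neighbours had 2.00 per Mb on 8q and 5.00 on 7p, so 7p hardly differed from its neighbour. Domains, taken as unbroken runs of 1 class, were 91.0 kb long in 8q and 108 kb in 7p at the median. The longest of 8q was mid-late (395 kb, 144328801 to 144723900) with 24 peaks, and the longest of 7p was early (1409 kb, 5448401 to 6857100), also with 24 peaks.

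Peaks followed the classes differently in each stretch. In 8q, 11 peaks were early, 41 mid-early, 93 mid-late and 21 late, so mid-late sequence held 56.0% of them. In 7p, 104 were early, 82 mid-early, 30 mid-late and 2 late, so early sequence held 47.7%. Per Mb of each class, 8q had 16.4 early, 29.2 mid-early, 51.3 mid-late and 44.2 late peaks. On the same scale, 7p had 24.7 early, 49.0 mid-early, 29.6 mid-late and 19.0 late peaks. The rest of the genome had 1.69, 1.44, 1.04 and 0.295 per Mb from early to late.

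Taken over the whole stretch, density in 8q thus ran against the order seen in the rest of the genome. Earlier sequence (early and mid-early) had 25.05 peaks per Mb and later sequence (mid-late and late) 49.8 in 8q, a ratio of 0.503 (interval 0.355 to 0.704). In the rest of the genome the same ratio was 2.32, and in the 8q neighbour, over 5 and 13 peaks, it was 2.73. So few peaks lie behind the neighbour ratio, which was given no interval, that its direction is not taken as settled. Counting error alone leaves the 8q ratio below 1. Sparse flanks of 8q enter this ratio. Early domains of 207.5 kb at the border and 77.3 kb before the edge held 3 and 0 peaks. At the bare chromosome end, an early domain of 92.1 kb and a mid-late one of 139.4 kb held 0. With the border 1 Mb nearer the chromosome end the 8q ratio was 0.535, and it was not computed without both flanks. In 7p the ratio was 1.104 (0.756 to 1.66), and its direction is not settled. It turned to 0.878 with peaks at or above the median nuclear score and to 0.867 in the sequence outside the change point.

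**Figure D4:**
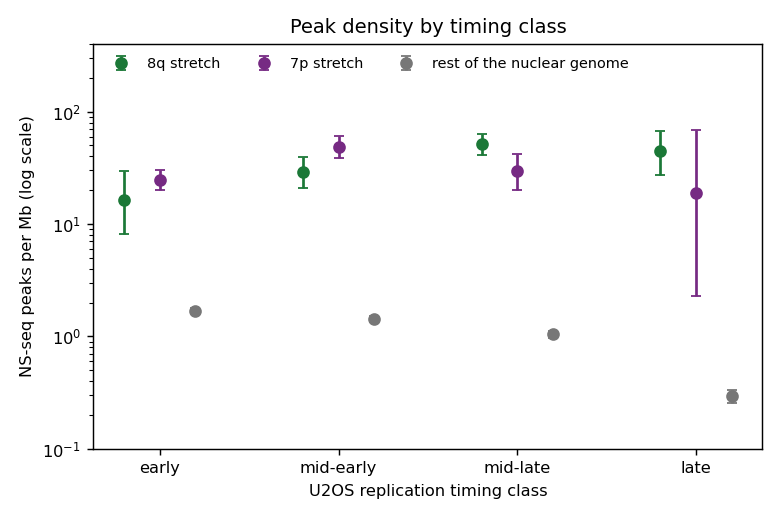
NS-seq peaks per Mb of each U2OS timing class (log scale) in the 8q stretch, the 7p stretch and the rest of the nuclear genome, with bars for 95% exact Poisson intervals (counting error only). The 8q points climb from 16.4 in early to 51.3 in mid-late sequence, those of 7p are highest in mid-early sequence at 49.0, and those of the rest of the genome fall from 1.69 in early to 0.295 in late sequence.

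Every class was denser in the stretches than in the rest of the genome, an excess built into the choice of dense stretches. In 8q the ratio was greatest in late sequence, where the rest of the genome was sparsest (0.295 per Mb). Within 8q, late sequence was not the densest, at 44.2 per Mb (27.4 to 67.6) against 51.3 (41.4 to 62.8) in mid-late sequence. In 8q the density was 9.69 times that of the rest of the genome in early, 20.2 times in mid-early, 49.1 times in mid-late and 150 times in late sequence. In 7p it was 14.6, 34.0, 28.4 and 64.6 times in the same order, the last over 2 peaks in 0.105 Mb, whose density interval of 2.30 to 68.7 per Mb gives 7p no order between late and other classes. The 8q stretch held 21 of all 244 late peaks of the nuclear genome (8.61%) and 9.95% of its mid-late peaks. Its share of all nuclear peaks was 4.45%, with 0.782% of the early and 3.57% of the mid-early peaks. Between the stretches, 8q was 0.664 times as dense as 7p in early and 0.596 times in mid-early sequence. It was 1.73 times as dense in mid-late and 2.33 times in late sequence.

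The late peaks of 8q lay in 4 domains within 1 Mb of each other. The longest of these domains, 247.5 kb from 143095101 to 143342600, held 10 peaks. The last, 81.4 kb from 143511901 to 143593300, held 7, or 86.0 per Mb, and the other two held 3 and 1. All 5 late intervals of 8q, and all 19 early intervals of 7p, held at least 1 peak. Of all intervals, 14 of 51 in 8q (741 kb) and 13 of 56 in 7p (726 kb) held 0.

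Peaks lay slightly nearer to a change of timing class in the stretches. The median distance was 42.4 kb in 8q, 36.0 kb in 7p and 53.3 kb in the rest of the genome, and 35.5%, 39.0% and 29.5% of peaks lay within 25 kb of one. Classes also changed more often per Mb in 8q than in the nuclear genome, and the part of that in these distances was not tested. Neighbouring peaks shared a class in 141 of 165 pairs of 8q and 191 of 217 pairs of 7p.

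The change point divided 7p into blocks that differed in density, gaps and zones; the division was made after the values were seen. The outer block of 2.71 Mb had 163 peaks, 60.1 per Mb, a median gap of 7.41 kb and 82.2% of its peaks in zones. The inner block of 4.29 Mb had 55 peaks, 12.8 per Mb, a median gap of 18.7 kb and 41.8% of its peaks in zones. Early sequence had 50.04 peaks per Mb in the outer and 12.9 in the inner block, mid-early sequence 70.8 and 16.4, and mid-late sequence 68.0 and 7.75. The split was placed where density differs most along these same peaks, so a contrast between the blocks is built in, and the inner mid-late value rests on 5 peaks. Against the outer block alone, the 8q stretch was less dense (ratio 0.632), and the inner block was still denser than the rest of the genome, at 1.12 per Mb.

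Median scores lay close together. The median score was 12.002 in 8q (interval 11.6 to 12.5), 11.97 in 7p (11.7 to 12.2) and 11.8 in the rest of the genome, and 28.3% of 8q peaks and 28.9% of 7p peaks scored under 11. Peaks at or above the median nuclear score still made 21.1 per Mb in 8q and 16.9 per Mb in 7p. Peaks in zones had a median score of 11.98 in 8q and 11.9 in 7p, and solitary peaks had 12.1 in 8q and 12.8 in 7p. The gap between zones and solitary peaks was wider in 7p than in 8q.

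The tail of high scores differed. Scores of at least 20 were carried by 1 of 166 peaks in 8q (0.602%, interval 0.0153 to 3.31), by 13 of 218 in 7p (5.96%, 3.21 to 9.98) and by 1.43% of peaks in the rest of the genome (1.06 to 1.90). Of the 13 in 7p, 9 lay in the outer block, 7 lay in zones, 5 were early, 7 mid-early and 1 mid-late. The scores come from the same peak call as the positions, and the threshold of 20 was chosen after the values were seen.

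The 5 highest-scoring peaks of each stretch included both peaks in zones and solitary peaks. In 8q the highest was 145756539 to 145757538 (score 20.6, mid-late, solitary), followed by 144500226 to 144501225 (19.7, in the largest zone) and 144292622 to 144293621 (19.0, mid-early). The other two were 144747342 to 144748341 (18.7, mid-early) and 144454708 to 144455707 (17.5, mid-late). In 7p the highest was 2097961 to 2098960 (22.2, mid-early, in a zone), which ranked 6 among all nuclear peaks. It was followed by 5321615 to 5322614 (21.8, early) and 2291956 to 2292955 (21.7, early), both solitary. The last of the 5 were 4523804 to 4524803 (21.7, early) and 401085 to 402084 (21.6, early). The peak at 4523804 stood 232 kb from its nearest neighbour, in the sparser middle of 7p.

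**Figure D5:**
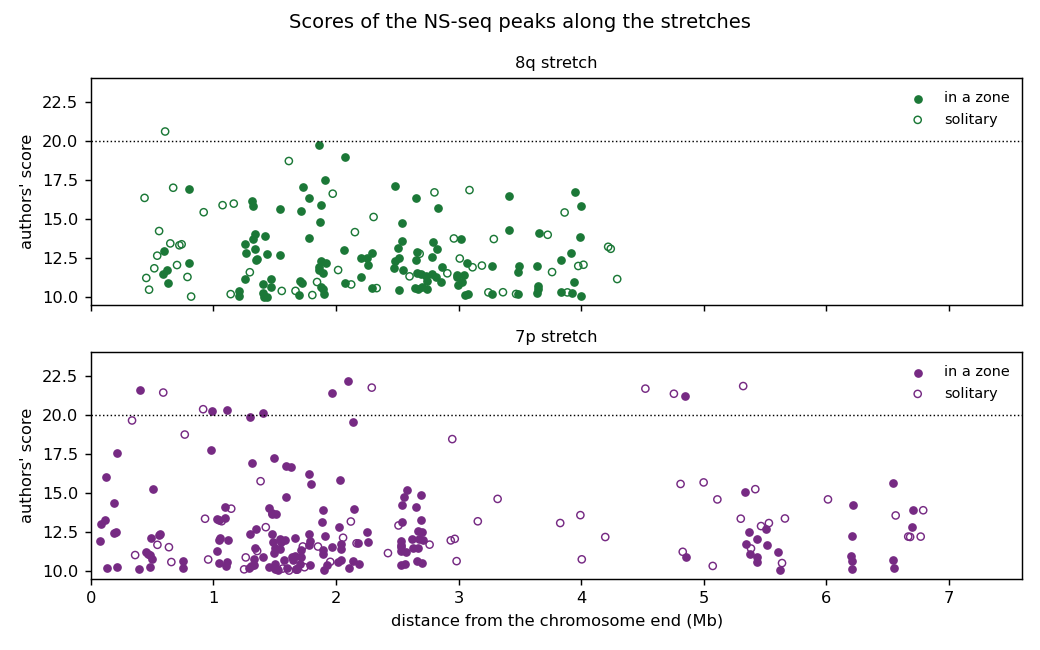
Authors' score of each peak (no stated scale) against distance from the chromosome end in Mb, for 166 peaks of the 8q stretch (above) and 218 of the 7p stretch (below), filled where the peak lies in a zone and open where it is solitary, with a dotted line at 20. Most peaks of both stretches score between 10 and 15, and 13 peaks of 7p but 1 of 8q lie above the line.

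No break site measured in HCT116 cells fell in the stretches. Of 129 MRE11-bound AsiSI sites, 0 lay in 8q and 0 in 7p, and 0 in either neighbour. A count of 0 allows up to 0.687 sites per Mb in 8q and 0.429 in 7p, and the nuclear genome had 0.0428 per Mb. At that rate 0.187 sites would fall in 8q and 0.2998 in 7p, so the length of the stretches was too short to show a lack of sites. Chromosome 8 had 6 sites and chromosome 7 had 7. The nearest to a member of 8q was 125633403 to 125633410 (mid-early), 16.4 Mb away, and the nearest to a member of 7p was 29604606 to 29604613 (early), 22.8 Mb away. In so sparse a list long distances to the nearest site carry little information, and they were not compared with those of other sequence.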

How the data were processed

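NS-seq peaks, U2OS timing intervals and MRE11-bound AsiSI sites were read from 6 region lists as deposited. Per the submitters' processing notes the build is hg19 and MACS2 was used, with no version or role. For the aligner, filters and pooling, nothing is given in the sources used. The score is the authors' value, deposited per peak with no stated scale, and was used only to describe, rank and filter peaks within the list. Read depth is unknown.

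Peaks were placed by midpoint. The 17 mitochondrial peaks were left out. Positions were converted to a 1-based count. Gaps run from the end of a peak to the start of the next. Zones, timing classes, windows, neighbours of 7 Mb and the change point (the position with the highest Poisson likelihood for a density on each side) were computed with Python 3.11.15, numpy 2.4.6, pandas 2.3.3 and scipy 1.17.1. The change-point step was run on simulated peaks spread at random on either side of a single step. Peaks of these stretches are clustered, so that run does not show how well the edges here are placed. Intervals at 95% are exact (Poisson, Clopper-Pearson or conditional binomial; order statistics for medians), for counting error only, and limits for 0 use 3 counts. No p-value was computed.

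The members, lists and rules were chosen with earlier results of these data known. Regions named are the outermost and innermost peaks, the 5 highest scores, the closest and most distant pairs, the 3 zones with most peaks and the 2 longest gaps of each stretch, and other positions were named after their values were seen. Alternatives changed the score minimum, borders, placement, zone distance, edge rule and windows kept. Genes and sequence were not analysed here.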

Additional observations from a re-analysis of the deposited data

How the results depend on the processing

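No paired analysis was possible because the results come from no test and from region lists without samples. Over 20 results, 106 alternatives were computed, 35 of them chosen after seeing the data. In 76 the value stayed within the interval of the value reported, or within 1.5 times it where there is none, in 26 it moved further, and in 4 the direction turned. Among the 76, placing peaks by start, or by the class of most of their bases, returned the same value each time. Break-site counts also stayed at 0, so these alternatives are weak checks. With peaks at or above the median nuclear score, 8q had 21.1 peaks per Mb, a median gap of 22.6 kb, 45.7% of peaks in zones and its edge at 142.122 Mb. Under the same setting 7p had 16.9 peaks per Mb, a gap of 22.5 kb, 47.5% in zones, an earlier over later ratio of 0.878 (turned) and its edge at 6.79 Mb. These lists hold fewer peaks by construction. With zones at 5 kb the shares were 48.8% in 8q and 49.5% in 7p, and at 20 kb 82.5% in 8q and 90.4% in 7p, so the share in zones passed 50% or not with the setting. With borders 1 Mb nearer the chromosome end, the ratio over the neighbour was 6.07 for 8q and 13.9 for 7p. With borders 1 Mb nearer the centromere, 8q had 31.9 peaks per Mb and the earlier over later ratio of 7p was 1.68. Without the densest window, 65.2% of 8q peaks were mid-late, 7p had 22.3 peaks per Mb, a gap of 12.7 kb and 64.2% in zones, and the 8q over 7p ratio was 1.53. That ratio turned to 0.954 with 7p as long as 8q and to 0.632 with the outer block of 7p, where the earlier over later ratio of 7p turned to 0.867. By the 250 kb rule the edges lay at 140.75 Mb in 8q and 6.75 Mb in 7p, and a search within the stretch put that of 8q at 145.925 Mb, its outermost peak. Mean scores were 12.6 in 8q and 12.9 in 7p. Apart from these constructions, the cause was not tested. A neighbour as long as the stretch gave 8q a ratio of 9.22, and for 7p it is the neighbour already used. Depth, pooling of libraries and treatment limit every value, since the single list shows none of them.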
